A study of Mus musculus with 22 samples.

Results

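Endothelial cell genes are described here in epididymal white fat of mice that breathed less oxygen for 6 hours. The set held 32 named genes known from endothelial cells, with the ligand Angpt1 that acts on them. Its list of names uses no measured value, but it was chosen with earlier results of these data known. The set was read on 2-colour arrays of 55681 biological probes. A member was tested where its probe was well above background in the red (Cy5) channel on at least 10 of the 22 arrays, which left 29 of the 32 among 16578 genes tested. All mice were male C57BL/6JOlaHsd, an inbred laboratory strain, aged 10 weeks on arrival. They received a purified diet with 10% of its energy from fat for 3 weeks and then one with 40% for 6 weeks, were fasted, and spent the last 6 hours in a calorimetry system. Normoxia mice breathed 20.9% oxygen (n = 12) and hypoxia mice 12% (n = 10), with 1 array per mouse. Each value is the log2 ratio of one mouse's RNA (Cy5) to a pool of all samples (Cy3), so that 0 is the level of the pool, and each difference is hypoxia minus normoxia. Whole fat was measured. In such tissue a smaller number of endothelial cells and less RNA per endothelial cell cannot be told apart.

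Endothelial cells line every blood and lymph vessel, and white fat is threaded with capillaries that deliver fatty acids and oxygen to adipocytes. They hold together through VE-cadherin (Cdh5), claudin-5 (Cldn5) and PECAM-1 (Pecam1), and their identity is kept by ETS-family factors such as ERG and by SOX7, SOX17 and SOX18. Angiopoietin-1, made by cells around the vessel, activates the receptor TIE2 (Tek) and steadies the vessel. Angiopoietin-2, made and stored by endothelial cells, can oppose it and is known as a hypoxia-responsive gene, while inflamed endothelium displays P-selectin, ICAM-1 and VCAM-1 to capture leukocytes.

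The measurements rest on single 60-base probes for most members. The first 30 bases of the probes for the genes on which the results turn are shown as the files give them, 5′ to 3′ on the transcript strand, so that a reader can place each measurement. On mm9, the build of the files, Angpt2 was read at chr8:18691458-18691517, minus strand, Cdh5 at chr8:106668159-106668218, plus strand, Icam2 at chr11:106238971-106239030, minus strand and Mmrn2 at chr14:35216855-35216914, plus strand. Egfl7 was read at chr2:26448142-26448201, plus strand, Lyve1 at chr7:117994171-117994230, minus strand, and Vcam1 at chr3:115813216-115813275, minus strand by its brighter probe and at chr3:115828953-115829012, minus strand by its dimmer one. The exon or untranslated region under each probe is not given, since no annotation of that build was used here.
Angpt2: acctatcttgatggcttagtttttaatggc
Cdh5: acttattataagactctagttctcacagac
Icam2: gcagcagatgcgggggacatttcctctcct
Mmrn2: actgtttctcagaaggaatgtctacagtga
Egfl7: cctgtctaagtggtaaggtggggattgtct
Lyve1: cactttgtgtgcctttaacaaatacattat
Vcam1, brighter probe: tatatttttataggcaaatggtaaagaggt
Vcam1, dimmer probe: aaccaagagtttggaagtaacctttactcc

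Promoters are shown for Tie1, Cldn5 and Egfl7, because Tie1 and Egfl7 each varied with Cldn5 between mice on Pearson's r. They come from RefSeq (GRCm38.p6) and run from 250 bases before to 50 bases after an annotated start. The RefSeq table held 21 promoter entries for 15 members. Capitals mark AGGAAG or its reverse CTTCCT and CCGGAA or its reverse TTCCGG, both built on the GGAA core that ETS factors such as ERG bind. The Tie1 window lies at chr4:118489800-118490099, minus strand, the Cldn5 window at chr16:18776597-18776896, plus strand and the Egfl7 window, the entry of 3 with the most matches, at chr2:26580833-26581132, plus strand. AGGAAG on either strand occurred in 10 of the 21 entries, from 9 genes, against 35.4% of all 32851 promoters. The Tie1 window holds it 2 times and the Egfl7 window 3 times, and the Cldn5 window does not hold these letters. CCGGAA occurred in 1 entry (Icam1) against 14.9% of all promoters. The hypoxia response element ACGTG, on either strand (CACGT), occurred in 1 entry (Clec14a) against 19.6%. The SOX motif ACAATG (reverse CATTGT) occurred in 1 entry against 12.6%, and the GATA motif TGATAA (reverse TTATCA) in 2 against 9.05%. These letter matches describe the windows only.
Tie1: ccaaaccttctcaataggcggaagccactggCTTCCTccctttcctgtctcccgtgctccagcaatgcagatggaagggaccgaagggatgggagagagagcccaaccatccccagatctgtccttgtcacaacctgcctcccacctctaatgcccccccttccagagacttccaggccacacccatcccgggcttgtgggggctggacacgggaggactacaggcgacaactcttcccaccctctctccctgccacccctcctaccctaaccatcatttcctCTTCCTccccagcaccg
Cldn5: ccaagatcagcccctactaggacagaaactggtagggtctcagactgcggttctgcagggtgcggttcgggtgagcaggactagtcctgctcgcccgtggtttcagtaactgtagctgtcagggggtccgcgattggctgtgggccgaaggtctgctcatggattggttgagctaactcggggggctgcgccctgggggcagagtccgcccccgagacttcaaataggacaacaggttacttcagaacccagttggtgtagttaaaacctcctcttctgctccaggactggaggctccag
Egfl7: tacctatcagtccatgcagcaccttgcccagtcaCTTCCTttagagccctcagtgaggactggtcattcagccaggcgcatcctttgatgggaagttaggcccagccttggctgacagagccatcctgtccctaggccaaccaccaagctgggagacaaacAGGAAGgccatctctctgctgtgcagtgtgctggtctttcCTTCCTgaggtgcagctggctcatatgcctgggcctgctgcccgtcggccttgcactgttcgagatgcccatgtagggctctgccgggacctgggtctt

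The arrays lie on 6 slides, of which 5 carry both groups and 1 (slide 2) carries normoxia mice 9 and 10 alone. In Cy5, 15.6% to 76.8% of the spots of an array were well above background, and 15.6% to 18.9% on the 4 arrays of slide 1. Tek, Angpt1, Angpt2, Aplnr and Erg were well above background on 14 to 17 arrays, and the other tested members on 18 to 22. Cdh5, Cldn5, Esam, Egfl7 and Icam2, which mark endothelium, were well above background on all 22 arrays, and all 13 adipocyte genes listed were tested. No member's probe was saturated on any array. Over all genes the standard error of the difference had a median of 0.10, and the number of mice limits this precision.

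No endothelial cell gene passed the test between 12% and 20.9% oxygen. The smallest adjusted p among the members was 0.873 (limma, Benjamini-Hochberg over all genes tested). The share of all genes that passed was 0%, so that the members' 0 stands beside the same count in the whole table. At an unadjusted p under 0.05, 1 member was higher in hypoxia (Angpt2) and 0 were lower, beside 2.58% of all genes higher and 2.73% lower (5.3% in either direction). Of the 29 tested members, 17 had a difference above 0 and 12 below, that is 58.6% above 0 beside 50.4% of all genes. The median difference of the members was 0.03 and that of all genes 0.001.

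The intervals bound how large a change could have gone unseen, but only on the scale used here (background offset of 50, then loess). On other scales differences and errors were larger or smaller. Lyve1 differed by 0.32 here, by 0.43 with an offset of 16, by 0.65 from the software's log ratio and by 0.02 with median centring. The SE of Selp was 0.07 here and 0.21 from the software's log ratio. For 28 of the 29 members the 95% interval of the difference spans 0, and for 27 it lies within 0.5 of 0 on the log2 scale. For 24 members the difference itself was under 0.15 in size. The pooled SD between mice was 0.25 for the median member (0.15 to 0.45) and 0.23 for the median of all genes.

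**Figure D1:**
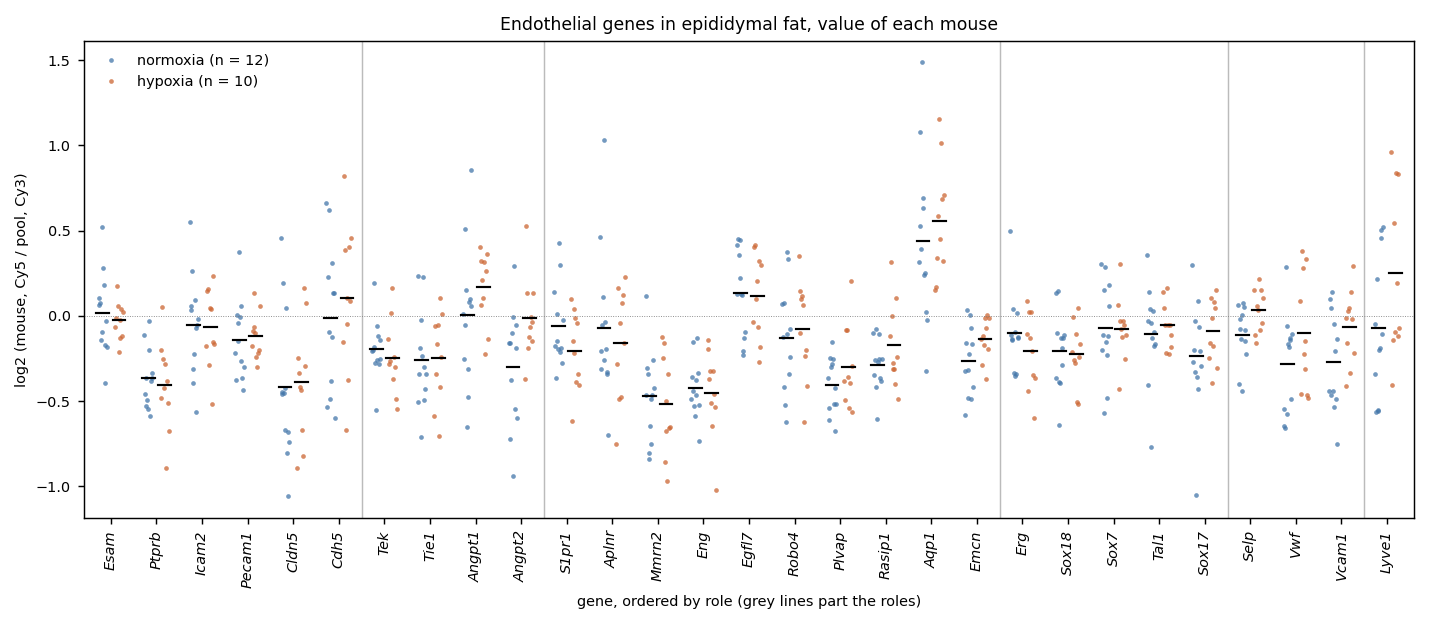
Log2 ratio to the pool (y axis) of each mouse for the 29 tested endothelial genes (x axis, ordered by role); blue points are the 12 normoxia mice, orange points the 10 hypoxia mice and black bars the group means. The 2 groups overlap for every gene, with Angpt2, Vcam1, Selp and Lyve1 among those whose hypoxia mean lies above the normoxia mean.

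Genes of the endothelial junction and surface contacts lay close to 0. Over the 6 of this role the differences ran from -0.04 (Esam) to 0.11 (Cdh5), with 3 above 0 and 3 below and a smallest unadjusted p of 0.507. Pecam1, the adhesion molecule CD31 of the vessel lining, ran from -0.43 to 0.38 with a median of -0.18 in normoxia. In hypoxia Pecam1 ran from -0.30 to 0.14 with a median of -0.14. The hypoxia mice lay wholly inside the normoxia range, and the difference of Pecam1 was 0.02 ± 0.09 (SE; 95% interval -0.15 to 0.20; limma adjusted p = 0.995).

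Cdh5, the cadherin that joins neighbouring endothelial cells, spread more widely. Its lowest, median and highest values were -0.60, 0.02 and 0.66 in normoxia. They were -0.67, 0.10 and 0.82 in hypoxia. Both the lowest and the highest of all 22 mice were hypoxia mice (4 and 2). The difference of Cdh5 was 0.11 ± 0.17 (SE), with an interval of -0.23 to 0.46, and its SD between mice exceeded that of 95.2% of genes. Cldn5, the tight-junction protein, differed by 0.03 ± 0.16 and also varied widely, with normoxia mice between -1.06 and 0.46. Icam2, a constitutive ligand for leukocyte integrins, differed by -0.01 ± 0.11, and Ptprb, the phosphatase VE-PTP that dampens TIE2 and VE-cadherin signalling, by -0.04 ± 0.09. The other 2 tested Ptprb probes gave -0.05 and 0.05.

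**Figure D2:**
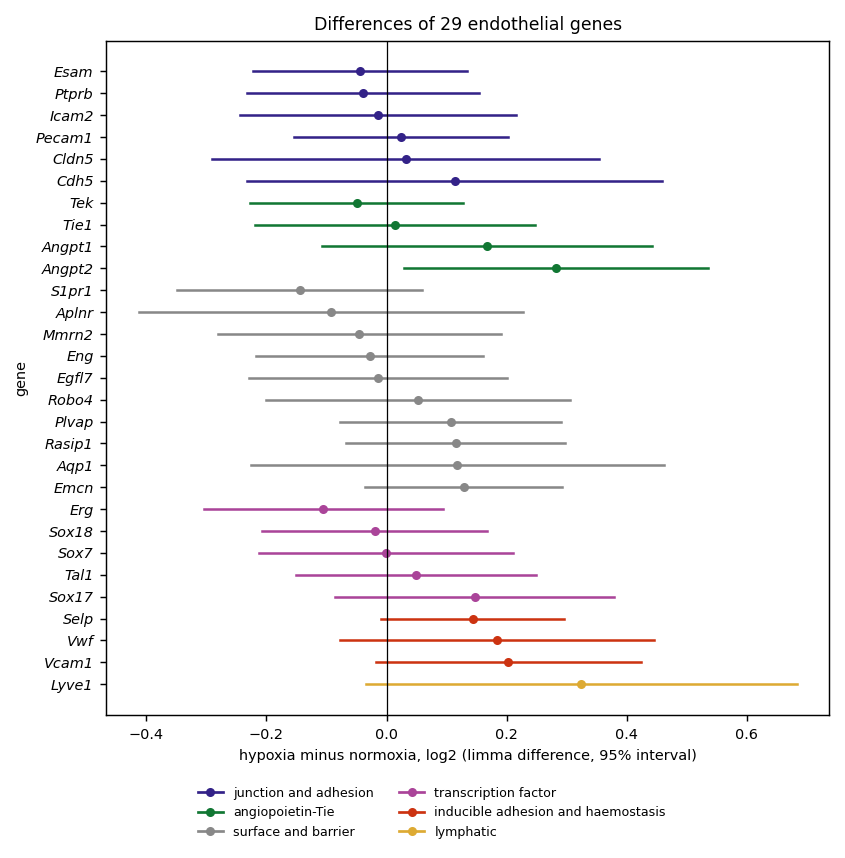
Hypoxia minus normoxia difference of each tested endothelial gene on the log2 scale (x axis; points are limma differences and lines 95% intervals), coloured by role. Of the 29 intervals only that of Angpt2 lies wholly above 0, at 0.03 to 0.54, and none lies wholly below.

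The angiopoietin-Tie genes held the member with the smallest p. Angpt2, the vessel-destabilising ligand, was -0.94 at its lowest, -0.18 at its median and 0.29 at its highest in normoxia mice. In hypoxia mice it was -0.37, -0.05 and 0.53. The groups overlap, but 5 of the 12 normoxia mice lay below the lowest hypoxia mouse, and 9 of the 10 hypoxia mice lay above the normoxia mean. The difference of Angpt2 was 0.28 ± 0.12 (SE; 95% interval 0.03 to 0.54), a ratio of 1.22-fold, with an unadjusted p of 0.0299 and a limma adjusted p of 0.873. Its p ranked behind those of 564 other genes. Within the 5 slides that carry both groups the difference of Angpt2 was above 0 each time, from 0.01 to 0.69.

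The Angpt2 value depends on single mice and on the scaling. With each mouse left out in turn the difference ran from 0.22 to 0.34, and without normoxia mouse 2, 6 or 12 or hypoxia mouse 2 its unadjusted p exceeded 0.05, with a highest value of 0.0741. With arrays centred on their medians in place of loess it was -0.01, on a scale where the median of all genes moved to -0.21.

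The receptors showed smaller differences. Tek, the angiopoietin receptor TIE2, ran from -0.55 to 0.19 in normoxia (median -0.20) and from -0.55 to 0.17 in hypoxia (median -0.27), and differed by -0.05 ± 0.09 (SE; limma adjusted p = 0.993). Tie1, the partner receptor that modulates TIE2, ran from -0.71 to 0.23 in normoxia (median -0.32) and from -0.70 to 0.10 in hypoxia (median -0.20). The 2 groups cover nearly the same range, and Tie1 differed by 0.01 ± 0.11, a sign that turned under several settings. Angpt1, the stabilising ligand, ran from -0.65 to 0.86 in normoxia (median 0.04) and from -0.22 to 0.41 in hypoxia (median 0.24). Its hypoxia mice lay inside the normoxia range, and Angpt1 differed by 0.17 ± 0.13, below 0 on 2 of the 5 slides.

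Because both ligands bind TIE2, their log2 ratios were also subtracted within each mouse. Angpt2 minus Angpt1 averaged -0.30 ± 0.56 (SD) over the 12 normoxia mice and -0.18 ± 0.36 (SD) over the 10 hypoxia mice, and a two-sided permutation test gave p = 0.586. The difference between the groups was smaller than the spread between mice of either group. Of 12 further genes of TIE2 signalling, all tested, 6 lay above 0 and 6 below (median 0.004, beside 0.001 for all genes). Of these, 1 had an unadjusted p under 0.05, beside 5.3% of all genes in either direction. It was Foxo1, at 0.25 ± 0.08 (SE; limma adjusted p = 0.683). Foxo1 is a transcription factor that TIE2 signalling restrains and that can drive Angpt2, but which cells of the fat carried its difference was not tested.

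Vcam1, Selp and Vwf, the tested inducible adhesion and haemostasis genes, had hypoxia means above the normoxia means after loess, while with median centring they differed by -0.07, -0.04 and -0.10, and none passed. Vcam1, the integrin ligand that captures leukocytes, ran from -0.75 to 0.14 in normoxia with a median of -0.32. In hypoxia it ran from -0.41 to 0.29 with a median of -0.02. Of the 12 normoxia mice 6 lay below every hypoxia mouse. Vcam1 differed by 0.20 ± 0.11 (SE; 95% interval -0.02 to 0.42; limma adjusted p = 0.949), and its dimmer probe by 0.14 ± 0.09.

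Selp, the P-selectin stored in endothelial granules and platelets, was read by 10 spots per array. It ran from -0.44 to 0.07 in normoxia (median -0.08) and from -0.16 to 0.22 in hypoxia (median 0.05). Of the 10 hypoxia mice 4 lay above every normoxia mouse, and 9 lay above the normoxia mean. Selp differed by 0.14 ± 0.07 (SE; interval -0.01 to 0.30; limma adjusted p = 0.949). The spots of one array differed among themselves with a median SD of 0.14, beside SDs between mice of 0.17 and 0.13. Its SD between mice exceeded that of only 5.51% of genes. This rank is not like for like, since Selp is a mean of 10 spots and the other members were read by 1 spot, or 2 for Pecam1. Vwf, the clotting factor stored beside P-selectin, differed by 0.18 ± 0.13, with slides from -0.43 to 0.71. Icam1, the third inducible adhesion molecule, was well above background in 1 normoxia mouse and 4 hypoxia mice and was not tested.

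Surface and barrier genes split evenly about 0, with 5 above and 5 below. Emcn, the endomucin of capillaries and veins, had the largest difference above 0 in this role, at 0.13 ± 0.08 (SE; interval -0.04 to 0.29). Rasip1, a regulator of vessel lumen formation, differed by 0.12 ± 0.09, and Plvap, the diaphragm protein of fenestrated capillaries, by 0.11 ± 0.09, with 0.04 by its dimmer probe. Aqp1, the water channel of capillary endothelium and red cells, differed by 0.12 ± 0.17. Aqp1 varied more between mice than 95.1% of genes did, from -0.32 to 1.49 in normoxia. Robo4, a receptor of the quiescent vessel wall, differed by 0.05 ± 0.12.

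Below 0, S1pr1, the sphingosine-1-phosphate receptor that keeps junctions tight, differed by -0.14 ± 0.10 (SE; interval -0.35 to 0.06; limma adjusted p = 0.975). It ran from -0.36 to 0.42 in normoxia and from -0.61 to 0.10 in hypoxia. S1pr1 was the only member whose difference was below 0 on all 5 slides with both groups, from -0.22 to -0.04. Aplnr, the apelin receptor of angiogenic endothelium, differed by -0.09 ± 0.16. Its slides ran from -0.73 to 0.52, so that its sign was not stable between slides. Mmrn2 (a matrix protein of the vessel wall), Eng (endoglin, a TGF-beta co-receptor) and Egfl7 (a secreted endothelial matrix protein) lay within 0.05 of 0. Clec14a, a lectin of the vessel lining, was well above background on 8 arrays by its better probe and was not tested.

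Transcription factors of endothelial identity lay on both sides of 0. Sox17, an arterial SOX factor, differed by 0.15 ± 0.11 (SE) and by 0.09 on its second probe. Tal1, a factor shared with blood cells, differed by 0.05 ± 0.10. Sox7, Sox18 and Erg differed by -0.0007, -0.02 and -0.11. The lowest unadjusted p in this role was 0.205, and none of these factors passed.

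Lyve1, the hyaluronan receptor of lymphatic endothelium and of some tissue macrophages, had the largest difference among the members. In normoxia it ran from -0.56 to 0.52 with a median of -0.15. In hypoxia it ran from -0.40 to 0.96 with a median of 0.06. Of the 10 hypoxia mice 4 lay above every normoxia mouse, while 5 lay above the normoxia mean. Lyve1 differed by 0.32 ± 0.17 (SE; interval -0.03 to 0.68; unadjusted p = 0.0745; limma adjusted p = 0.952) and was above 0 on all 5 slides, from 0.13 to 0.61. Its value depended on the scaling, from 0.02 with median centring to 0.65 from the log ratio of Agilent's software. Its unadjusted p was under 0.05 in 9 of 37 alternatives, among them slide as a fixed block (0.43, p = 0.0153), and the lowest limma adjusted p was 0.725. Without single mice it ran from 0.25 to 0.40. Prox1, the factor that defines lymphatic endothelium, was well above background on 1 array. The lymphatic genes Flt4, Reln and Mmrn1 were well above background on 8, 3 and 0 arrays.

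Markers of several other cell types lay mostly above 0, beside 50.4% of all genes. Macrophage genes had a median difference of 0.10, with 11 of 13 above 0, and their mean level per mouse ran from -0.25 to 0.15 in normoxia and from -0.20 to 0.43 in hypoxia. Mesothelial genes had a median of 0.17 (11 of 11 above 0), with levels from -0.64 to 0.25 and from -0.52 to 0.98. Pericyte and smooth muscle genes had a median of 0.17 (10 of 12 above 0), with levels from -0.31 to 0.21 and from -0.13 to 0.30. Genes of red blood cells and platelets had a median of 0.35 (5 of 5 above 0), with levels from -0.57 to 0.37 and from -0.26 to 0.68. Mast cell genes had a median of 0.16 (6 of 6 above 0). Adipocyte genes had a median of 0.05 (9 of 13 above 0, with Adrb3 at -0.76), and progenitor and fibroblast genes a median of 0.02 (5 above 0 and 5 below). The platelet genes Itga2b, Gp9 and Gp1bb were well above background on 3 arrays each. Lyve1, Vcam1, Angpt1, Selp and Aqp1 can also be expressed by one or another of these cells, and the part of such cells in their group differences was not tested.

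**Figure D3:**
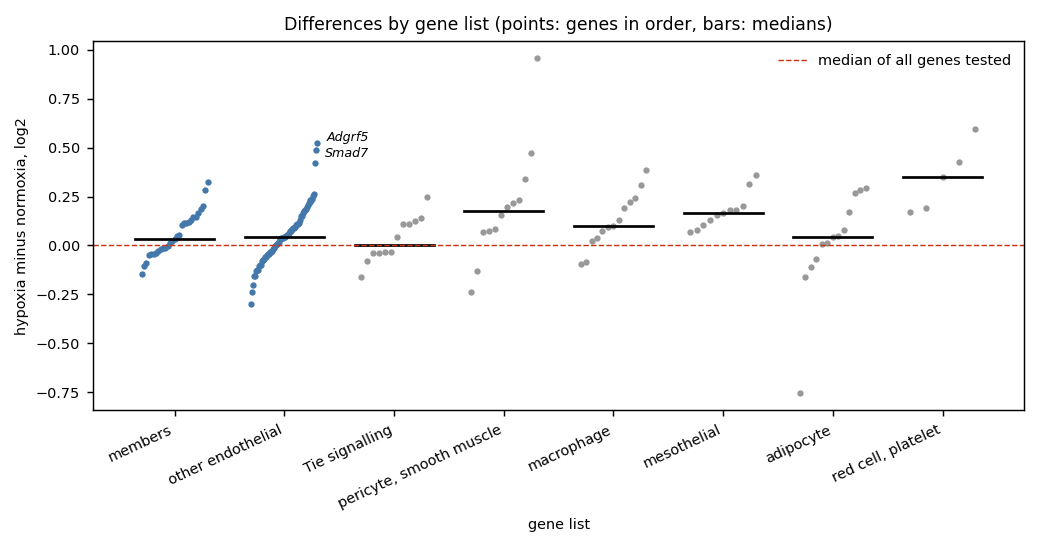
Hypoxia minus normoxia differences on the log2 scale (y axis) of the tested genes in each list (x axis; 1 point per gene in order of size, black bars the medians, dashed line the median of all genes). The members have a median of 0.03, beside 0.17 for pericyte and smooth muscle genes, 0.17 for mesothelial genes and 0.35 for red cell and platelet genes.

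Lyve1, Vcam1, Aqp1 and Angpt1 were set against the markers of these other cells over the 22 mice, with group means removed, in 41 correlations chosen after the data were seen. Lyve1 had its largest correlations with the macrophage genes Mrc1 (r = 0.54, rho = 0.50, permutation p = 0.00986, adjusted p = 0.101) and Cd14 (r = 0.54, rho = 0.48, adjusted p = 0.111). None of its 13 passed, and the median was 0.14. Of the 13, 9 were positive and the others negative, down to -0.33 for the macrophage gene Cd68 (rho = -0.44). Vcam1 followed the keratin Krt8, an epithelial and mesothelial gene (r = 0.67, rho = 0.72, permutation adjusted p = 0.0172 and 0.0152). Without the 2 mice farthest from the median this r was 0.66, and with slide effects removed 0.60. The keratins Krt18 (r = 0.58, rho = 0.68, permutation adjusted p = 0.0810 and 0.0166) and Krt19 (r = 0.48) were positive too. Bnc1 (-0.31), Wt1 (-0.26) and Msln (-0.17) were negative. Of the 11 mesothelial genes 6 were positive with Vcam1, and the median was 0.01. Aqp1 ran against Pf4, a gene of the red cell and platelet list (r = -0.69, rho = -0.63, permutation adjusted p = 0.0172 and 0.0276). It was negative with all 5 tested genes of that list. Whether the Pf4 signal came from platelets was not tested. Without the 2 mice it was -0.54, and with slide effects removed -0.44. Angpt1 followed none of 12 pericyte genes, with a median of -0.02. These correlations were computed after loess only, and whether they hold their sign under other scalings was not tested.

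While the groups did not separate, mice of one group differed from each other in their endothelial genes, and part of this variation was shared. With group means removed, the 406 pairs of tested members had a median r of 0.10, and 10.8% of pairs reached 0.5. Over all genes tested the median was 0.02, and 5.35% of pairs reached 0.5. Among the 14 tested genes of a core list of general endothelial markers, all of them members, the median was 0.18, with 18.7% of 91 pairs at 0.5 or more. Shared variation was not particular to these genes. Pairs at 0.5 made up 12.8% for macrophage, 18.2% for pericyte and smooth muscle and 26.9% for adipocyte genes. For mast cell, red cell and platelet, and mesothelial genes they made up 33.3%, 50.0% and 54.5%. The share was 6.65% for the 69 other endothelial genes, 4.44% for progenitor and fibroblast genes and 3.03% for TIE2 signalling genes. The mice share slides, dyes and one pool, and these medians are a description with no test.

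**Figure D4:**
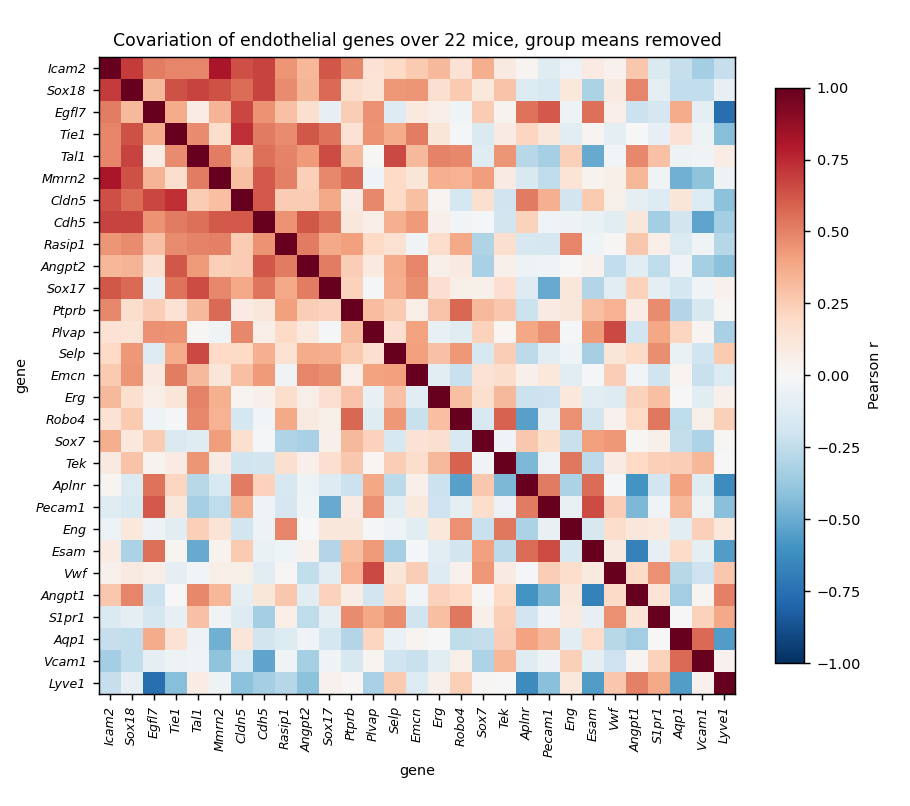
Pearson r between each pair of tested endothelial genes over 22 mice with group means removed (red positive, blue negative; genes ordered by their correlation with the mean of the core list). Icam2, Sox18, Egfl7, Tie1, Tal1, Mmrn2, Cldn5 and Cdh5 form a block of positive values at the upper left, while Lyve1 is negative with most of them after loess and reaches -0.76 with Egfl7 (0.86 with median centring). The ordering itself gathers genes with positive values at the upper left.

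Cdh5 served as the anchor for testing this variation, in a family of 33 relations (28 members and 5 genes of other cell types). Sox18 had r = 0.68 and rho = 0.62 (permutation adjusted p = 0.0132 and 0.0312), and Icam2 r = 0.67 and rho = 0.67 (0.0132 and 0.0312). Angpt2 had r = 0.62 and rho = 0.63 (0.0213 and 0.0312). Cldn5 had r = 0.61 and rho = 0.61 (0.0213 and 0.0364), and Mmrn2 r = 0.62 and rho = 0.57 (0.0213 and 0.0464). These 5 passed on both measures. Without hypoxia mice 4 and 2, the farthest from the median of Cdh5, r was 0.70, 0.66, 0.55, 0.69 and 0.54 in the same order.

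The 5 relations held their sign within each group and with slide effects removed. They were picked for their r over these same mice, so that this agreement carries little weight. Among members that did not pass, Emcn (0.71 in normoxia, -0.08 in hypoxia) and Selp (0.69 and -0.18) differed in sign between the groups. Sox17 (0.73 and 0.20) and Tal1 (0.69 and 0.29), which passed on Pearson's r only, kept theirs. In normoxia mice alone r was 0.76 for Sox18, 0.64 for Icam2, 0.56 for Angpt2, 0.63 for Cldn5 and 0.62 for Mmrn2. In hypoxia mice alone r was 0.56, 0.73, 0.75, 0.60 and 0.61 in that order. Angpt2, the member with the smallest p between the groups, thus followed Cdh5 within each of them. With slide effects removed r ran from 0.60 to 0.73 for these 5 genes.

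Other members lay between these and 0, or below it. Tie1 had r = 0.52 and rho = 0.53 (permutation adjusted p = 0.0590 and 0.0729) and an r of 0.62 with slide effects removed, and Rasip1, Egfl7 and Emcn had r of 0.45, 0.45 and 0.43, none of which passed. Tal1 (r = 0.55) and Sox17 (r = 0.54) passed on Pearson's r only, with permutation adjusted p of 0.0372 and 0.0407. Pecam1 had r = -0.03 and rho = 0.17, Tek -0.18 and -0.33, Esam -0.07 and 0.12, Robo4 -0.03 and -0.03, and Erg 0.05 and -0.16, with permutation adjusted p of 0.281 or more. Vcam1 was negative with Cdh5 (r = -0.53, rho = -0.59) and passed on rho only (permutation adjusted p = 0.0590 and 0.0372). With slide effects removed its r was -0.34, and its r under other scalings is not given. The 5 genes of other cells gave r from -0.19 (Upk3b, mesothelium) to 0.29 (Hba-a1, red blood cells), and none passed. In all, 8 of 28 members had an r over 0.5 with Cdh5, beside 8.92% of all genes tested.

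Among all 406 pairs of members, 8 passed on Pearson's r after adjustment, 7 positive and 1 negative, and 2 of these passed on Spearman's rho as well. The share of all gene pairs that would pass was not counted, so this count is no result about the members as a set. Icam2 and Mmrn2 had the highest correlation, with r = 0.81 and rho = 0.74 (permutation adjusted p = 0.00812 and 0.0487). Without the 2 mice farthest from the median r was 0.75, in normoxia 0.90, in hypoxia 0.71 and with slide effects removed 0.80. Tie1 and Cldn5, a receptor and a junction protein, had r = 0.73 and rho = 0.66 (0.0352 and 0.0887), and Egfl7 and Cldn5 had r = 0.67 and rho = 0.65 (0.0467 and 0.0887). Tie1 and Egfl7 had r = 0.37 with each other and did not pass. The promoters of these 3 genes are the ones printed above. Sox18 with Icam2 (r = 0.70), Sox18 with Tal1 (r = 0.68), and Cdh5 with Sox18 and with Icam2 made up the rest of the positive pairs.

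The other pair that passed on both measures was negative. Egfl7 and Lyve1 had r = -0.76 and rho = -0.77 (permutation adjusted p = 0.0345 and 0.0406), while with arrays centred on their medians r was 0.86 and in the authors' deposited levels 0.74. The correlation was -0.76 in normoxia alone, -0.76 in hypoxia alone, -0.76 with slide effects removed and -0.81 without the 2 mice farthest from the median. From the log ratio of Agilent's own software it was -0.55. Lyve1 also ran against Aplnr (r = -0.63, adjusted p = 0.0548), which did not pass.

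**Figure D5:**
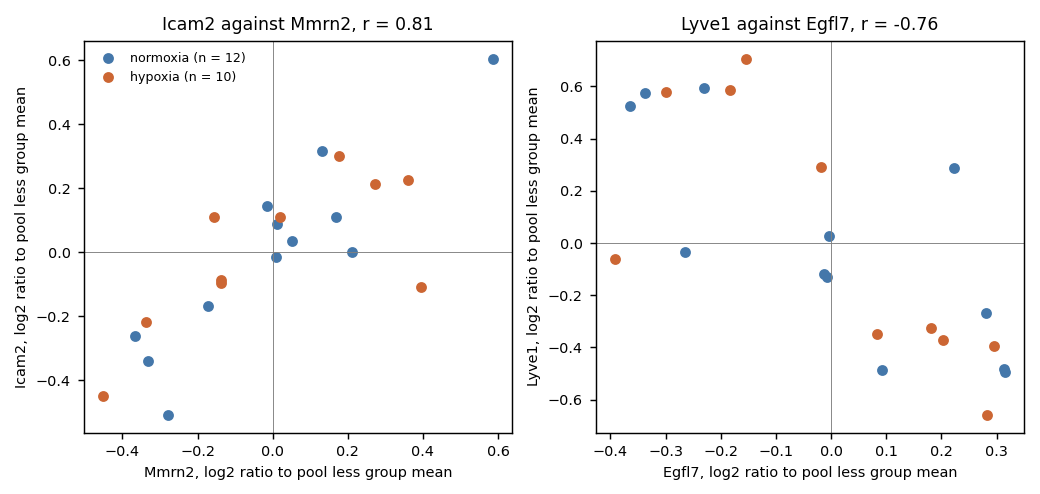
The 2 pairs of endothelial genes that passed on both correlation measures, each point 1 mouse (blue normoxia, orange hypoxia) and both axes log2 ratios to the pool less the group mean. Icam2 and Mmrn2 lie along a rising line (r = 0.81), and Lyve1 is lower where Egfl7 is higher (r = -0.76) in both groups after loess, whereas with median centring r was 0.86.

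How strongly all genes vary together depends on the scaling, and the positive correlations must be read against that. With arrays centred on their medians the median r of all genes with Cdh5 was 0.90, beside 0.92 for the members. In the authors' deposited levels, which are not ratios, it was 0.74 beside 0.80. From the log ratio of Agilent's software it was 0.17 beside 0.41, and after loess 0.02 beside 0.11. The members' median was the higher one under each of these 4 settings. The 7 positive pairs, picked for their r in these same data, were above 0 under each of them, from 0.17 to 0.99. That sign carries little weight on scales where most genes vary together. With median centring 93.6% of all genes had an r over 0.5 with Cdh5, and in the deposited levels 63.7%. Probes of one gene were also compared. Over 3728 genes with several tested probes the median r between probes was 0.23, and for members it was 0.38 for Plvap, 0.40 for Vcam1, 0.18 for Sox17 and -0.17 to 0.47 for Ptprb.

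The mean of the core list was used to ask which other genes vary with these core genes. Not all core genes followed the mean of the others. Esam, Pecam1, Tek, Robo4 and Erg had r of 0.11, 0.13, 0.14, 0.19 and 0.21. The remaining core genes ran from 0.30 (Emcn) to 0.69 (Sox18). Of the 15 tested members outside that list, Icam2 (r = 0.80), Tal1 (0.61) and Angpt2 (0.52) were among the 5% of all genes most like it. Vcam1 (-0.28) and Lyve1 (-0.43) were at the other end of the members. Of 69 other endothelial genes, 7 were in that top 5%, that is 10.1%. They were She, Nos3 (endothelial nitric oxide synthase), Grrp1, Smad6, Ushbp1, Adgrf5 and Plxnd1, with r from 0.58 to 0.78. Genes of other cells were in that top 5% as well. Lep was there of 13 adipocyte genes (7.69%, r = 0.76) and Rgs5 of 12 pericyte and smooth muscle genes (8.33%, r = 0.61). The macrophage, mesothelial, progenitor and fibroblast, red cell and platelet, and mast cell lists each had 0 genes there. The 10 named genes most like the core mean over the 22 mice were Slc4a7, Prelp, Ttc13, Tnfrsf10b, Spaca1, Rtn4, Prps1l3, N4bp3, She and Thsd1, with r from 0.78 to 0.84.

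The same 69 endothelial genes outside the set were compared between the groups. Of these 44 lay above 0 and 25 below (median 0.04), 7 had an unadjusted p under 0.05 above 0 and 3 below, and none passed. Of all genes tested 50.4% lay above 0, and 2.58% and 2.73% had such a p above and below 0. Adgrf5, an adhesion receptor of capillary endothelium, had the smallest p, with a limma adjusted p of 0.0691 (0.52 ± 0.09, SE; above the normoxia mean in 10 of 10 hypoxia mice). Smad7, which restrains TGF-beta receptors, differed by 0.49 ± 0.11. Kdr, the main receptor for VEGF, differed by 0.23 ± 0.07, but by -0.17 ± 0.12 on its other tested probe. Sema3g, an arterial guidance ligand, differed by -0.30 ± 0.10, but by 0.08 ± 0.10 on its other probe. Adcy4, an adenylyl cyclase, differed by -0.24 ± 0.09. These 5 had limma adjusted p from 0.0691 to 0.830, beside 0.873 for Angpt2, the lowest of the members.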

How the data were processed

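Gene expression was measured on 2-colour Agilent arrays, 1 per mouse, with the mouse in Cy5 and a pool of all samples in Cy3 and no dye swap. The submitters' processing notes name Agilent Feature Extraction 10.7.3.1 as the scanner software. Spot mean signals and local median backgrounds were taken as deposited intensity values, which carry no normalization. In the same deposited files a log10 ratio of Cy5 over Cy3 is background-subtracted and dye-normalized by that software, per the file headers. A deposited series table holds log2 levels with equal medians. The authors' normalization of that table is not stated in the labels.

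Background was corrected by normexp (offset 50) and each array normalized by loess in limma 3.58.1 under R 4.3.3. Outlier-flagged and control spots were left out and saturated ones kept, the spots of a probe were averaged, and a gene was represented by the tested probe of highest mean intensity. Names were updated through the RefSeq table of GRCm38.p6. Group was the only term (lmFit and eBayes, Benjamini-Hochberg, threshold 0.05), and the fit was tested on simulated data. Correlations used log2 ratios less their group means and 100000 permutations within groups. The treatment protocol also speaks of low-fat feeding but assigns no mouse to it, and diet was not modelled.

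The members and lists were chosen with earlier results of these data known. All 32 members could be named, with values by mouse for those with an unadjusted p under 0.05 and for Cdh5, Pecam1, Tek, Tie1, Angpt1, Angpt2, Icam1, Vcam1, Selp, Lyve1 and Prox1 where tested. From the other lists, genes past the threshold or, for other endothelial genes, the 5 of smallest p could be named, and the 10 genes most like the core mean. Further named genes (Foxo1 and the markers of other cells) were chosen after their values were seen. Other value columns not used: none. The series text calls the mice biological replicates. Alternatives tried were the replicate block, slide as a block, slides or mice left out, array weights, other background corrections and scalings, both other deposited quantities, the probe filter and the mean over probes. The correlations of the other cells' markers, the pairs of members under other processing and the levels of all genes with Cdh5 were added after the data were seen.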

Additional observations from a re-analysis of the deposited data

Results flagged for a closer look

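For each tested member the highest and lowest of the 10 hypoxia mice were set against the rest by Dixon's test. Of 29 genes, 0 had a mouse that stood apart, where chance gives about 1 in 20, or 1.45.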

How the results depend on the processing

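No member passed the threshold under any of the 37 alternatives, where between 0 and 4 of all genes tested passed (4 with array weights). The counts of members at an unadjusted p under 0.05 below stand without the share of all genes under each alternative, which was not counted. They are therefore no result about the members. With the replicate number as a block, 1 member had an unadjusted p under 0.05 above 0, but this was Lyve1 (0.38, p = 0.0331), while Angpt2 lost that mark (0.28, p = 0.0595), and Pecam1 (-0.020) and Tie1 (-0.011) turned sign. The numbers do not pair the mice: deviations of same-numbered mice correlated from -0.47 to 0.25 (median -0.23), 2 of 10 were over 0.1, and 0 correlated best with their own number. The block changed no adjusted call. Members with an unadjusted p under 0.05 above 0 numbered 2 with slide as a fixed block, without slide 1, with offset 16, with no probe filter and with the mean of probes. These were Angpt2 with Lyve1 (fixed block, offset 16), Vcam1 (without slide 1, mean of probes) or Selp (no filter). The single one was Lyve1 without slide 2 and from the software's log ratio, and Selp with no background correction. There were 3 with array weights (Angpt2, Selp and Vcam1), and 0 with median centring, in the deposited table and with a filter of 18 arrays, which drops Angpt2, Angpt1 and Tek and their values. Median centring shifted the median of all genes to -0.21 and that of the members to -0.21, with 1 member above 0. It turned Angpt2 (-0.0087), Cdh5 (-0.16), Pecam1 (-0.14), Tie1 (-0.24) and Angpt1 (-0.036). Slide as a fixed block and leaving out slide 2 turned Pecam1 (-0.0099) and Tie1 (-0.013), the scanner software's log ratio turned them to -0.017 and -0.062, and the deposited table turned Tie1 to -0.038. The cause of these turns was not tested.

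With each mouse left out in turn, members past the threshold stayed at 0, those with an unadjusted p under 0.05 ran from 0 (without normoxia mouse 6) to 3 (without normoxia mouse 9 or hypoxia mouse 2) above 0 and stayed at 0 below, the median difference ran from 0.01 to 0.07 and the count above 0 from 15 to 22. Angpt2 minus Angpt1 ran from 0.01 to 0.21, Angpt2 from 0.22 to 0.34, Cdh5 from 0.03 to 0.20, Pecam1 from -0.0040 to 0.071, Tek from -0.10 to -0.01, Tie1 from -0.027 to 0.066 and Angpt1 from 0.11 to 0.24. The median correlation of core genes (0.18) ran from 0.16 to 0.25, and that with Cdh5 (0.11) from 0.045 to 0.18. The core median was 0.16 with slide effects removed, 0.24 in normoxia alone, 0.22 in hypoxia alone, 0.37 from the software's log ratio, 0.70 in the deposited table and 0.93 with median centring. The median with Cdh5 was 0.18, 0.19, 0.018, 0.41, 0.80 and 0.92 in the same order, and 0.061 without slide 1. Angpt2 had an unadjusted p under 0.05 in 26 of 36 alternatives, and its lowest limma adjusted p was 0.507. These alternatives are not independent, since they include a fit without each of the 22 mice. Aquantile scaling between arrays repeated the main fit of Angpt2 (0.28, limma unadjusted p = 0.0299). Dim signal limits Icam1, Prox1 and Clec14a, which were not tested.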
